A study of Homo sapiens with 9 samples.

Results

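The 52 genes described here are cell cycle genes, of which 18 act at the entry into S phase or in DNA replication and 34 act in G2 and mitosis. They were listed by name for these roles. Their values on the arrays were not part of the rule. All 52 were measured, out of 19775 genes with a named probe set, by 104 of 54613 probe sets, and each gene is represented by its brightest probe set. The arrays compared 3 lines of HaCaT cells, an immortalized human keratinocyte line, with 3 whole-genome arrays per line. NLS-actin cells stably expressed beta-actin fused to EGFP and a nuclear localization sequence, which brings the fusion protein into the nucleus. WT-actin cells stably expressed the EGFP fusion of wild-type beta-actin without that sequence. No construct is named for the parental HaCaT line. Both actin lines were selected with G418 until a stable GFP-positive population had formed, so that each construct was measured in 1 population. Construct and population cannot be told apart. Arrays of the same line are named experimental replicates in the methods, with no word on separate cultures, and the p values then measure a spread between arrays that may be technical. The comparisons ask which transcripts differ when actin is directed into the nucleus, against the parental line and against cells with the fusion protein alone.

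Cells divide by switching on groups of genes in order. At the end of G1, cyclin-dependent kinases free the E2F transcription factors from the retinoblastoma protein, and E2F turns on the genes that license replication origins, unwind DNA and supply nucleotides. Later, MYBL2 and FOXM1 turn on the genes of G2 and mitosis, which in resting cells are held down by the DREAM complex at a promoter element called the cell cycle genes homology region (CHR). In the epidermis these genes are used mainly by the dividing keratinocytes of the basal layer.

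This division was visible in the promoters of the members. RefSeq promoter sequences (GRCh38.p14, 250 bases before to 50 bases after the start of the gene) were matched for 43 of the 52 members. MCM4, MCM5, CCNE2, FOXM1, AURKA, TPX2, TTK, BIRC5 and UBE2C were not matched. The E2F motif was searched as TTTGGCGC or TTTCCCGC, the CHR as TTTGAA and the box bound by the factor NF-Y as CCAAT, each on both strands. None of these motifs contains another. Either E2F motif stood in 8 of 15 promoters of S phase members (53.3%), in 1 of 28 promoters of mitotic members (3.57%) and in 2.75% of the promoters of 27305 genes. TTTGAA stood in 1 of 15 promoters of S phase members (6.67%), in 20 of 28 promoters of mitotic members (71.4%) and in 18.2% of all promoters. CCAAT stood in 80.0% of the S phase promoters and 75.0% of the mitotic promoters, against 39.7% of all promoters. A match describes letters in this window and not a bound site. The promoters of 5 members on which the results below turn are printed with the motif in capitals. CDC6 (chr17:40287629-40287928, plus strand) carried TTTGGCGC starting 8 bases after the start of the gene. E2F1 (chr20:33686336-33686635, minus strand) carried the same motif starting 20 bases before it (position -20). TYMS (chr18:657403-657702, plus strand) carried TTTCCCGC on the opposite strand, read here as GCGGGAAA, from position -39. PLK1 (chr16:23678639-23678938, plus strand) and CDCA8 (chr1:37692266-37692565, plus strand) carried TTTGAA from positions -29 and -23.
CDC6: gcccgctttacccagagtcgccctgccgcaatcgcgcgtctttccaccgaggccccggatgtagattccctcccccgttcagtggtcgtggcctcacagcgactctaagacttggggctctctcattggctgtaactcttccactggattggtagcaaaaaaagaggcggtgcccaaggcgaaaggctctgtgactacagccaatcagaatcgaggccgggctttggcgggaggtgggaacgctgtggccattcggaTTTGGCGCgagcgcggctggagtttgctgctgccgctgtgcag
E2F1: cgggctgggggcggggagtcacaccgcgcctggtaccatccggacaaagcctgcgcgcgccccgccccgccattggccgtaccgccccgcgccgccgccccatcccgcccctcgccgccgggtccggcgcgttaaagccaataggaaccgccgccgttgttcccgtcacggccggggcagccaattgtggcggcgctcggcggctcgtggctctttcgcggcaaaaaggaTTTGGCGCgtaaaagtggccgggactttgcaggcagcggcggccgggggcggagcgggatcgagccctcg
TYMS: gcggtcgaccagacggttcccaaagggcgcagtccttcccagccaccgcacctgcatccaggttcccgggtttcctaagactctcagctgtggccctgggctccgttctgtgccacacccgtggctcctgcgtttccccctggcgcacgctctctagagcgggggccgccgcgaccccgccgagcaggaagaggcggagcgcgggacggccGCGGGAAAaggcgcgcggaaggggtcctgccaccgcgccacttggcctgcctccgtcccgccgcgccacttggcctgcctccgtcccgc
PLK1: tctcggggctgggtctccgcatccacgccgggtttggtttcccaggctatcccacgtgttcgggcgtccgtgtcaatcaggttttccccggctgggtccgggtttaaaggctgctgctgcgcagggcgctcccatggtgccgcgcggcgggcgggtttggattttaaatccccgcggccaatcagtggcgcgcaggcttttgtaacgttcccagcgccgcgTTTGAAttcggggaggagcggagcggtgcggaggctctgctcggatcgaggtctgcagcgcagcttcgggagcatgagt
CDCA8: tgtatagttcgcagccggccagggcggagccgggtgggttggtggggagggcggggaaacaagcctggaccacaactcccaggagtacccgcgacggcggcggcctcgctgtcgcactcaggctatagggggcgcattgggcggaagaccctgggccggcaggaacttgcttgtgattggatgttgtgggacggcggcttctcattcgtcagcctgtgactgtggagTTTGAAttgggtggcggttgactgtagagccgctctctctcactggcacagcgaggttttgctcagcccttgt

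The values are MAS5 signals, which are linear intensities scaled to the same trimmed mean on every array. Summed signals of 6 basal keratinocyte markers, KRT5 and KRT14 among them, ranged from 37900 to 42000 in NLS-actin cells, from 32800 to 43900 in WT-actin cells and from 27700 to 36200 in parental cells, and none of the 6 lay below a signal of 10 on all 3 arrays of a line. The summed signals of 8 fibroblast, 5 leukocyte and 6 endothelial markers never exceeded 1220, 213 and 235. Of the leukocyte markers, CD14 was higher in NLS-actin than in WT-actin cells (log2 fold change 2.53, adjusted p = 0.0437 by limma). It had 94, 140 and 84.9 in NLS-actin cells, 13.8, 25.3 and 16.6 in WT-actin cells and 76.2, 119 and 35.6 in parental cells. The summed signals of 6 melanocyte markers, of which 2 to 3 lay below a signal of 10 on all arrays of a line, ranged from 1750 to 2490 in NLS-actin cells, from 1780 to 2360 in WT-actin cells and from 2510 to 2770 in parental cells. Nearly all of each sum was MITF, at 2070, 1690 and 2420 in NLS-actin, 1870, 2310 and 1720 in WT-actin and 2630, 2440 and 2700 in parental cells. No other melanocyte marker exceeded 74.7 on any array. The 10 markers of differentiating keratinocytes summed to between 8110 and 14300 in NLS-actin cells, 6370 and 9370 in WT-actin cells and 6150 and 8660 in parental cells. Of these, SPRR1B, a cornified envelope protein, was higher in NLS-actin than in WT-actin cells (log2 fold change 2.45, adjusted p = 0.0186 by limma), and KRT1 had 371, 3300 and 265 in NLS-actin cells, 197, 33.6 and 17.5 in WT-actin cells and 62.1, 287 and 25 in parental cells. The list did not move in 1 direction. Log2 fold changes were positive for 7 of the 10 in NLS-actin against WT-actin cells (53.4% of all genes) and for 5 against parental cells (49.4%). KRT10 had log2 fold changes of -0.49 and -0.22 in these comparisons. Between the actin lines the median was 0.65. There 3 of the 10 were higher at an unadjusted p under 0.05 by limma (5.39% of all genes) and 1, KRT10, was lower (4.09%). The 3 were SPRR1B, KRT1 (log2 fold change 3.82) and TGM1 (2.55). Against parental cells the median was 0.33, with 2 of the 10 higher at that level (2.48% of all genes) and 0 lower (3.96%). Within their lines, NLS-actin replicate 2, WT-actin replicate 1 and parental replicate 2 stood apart in the same direction, as the correlations of their deviations from the line means were 0.597 (NLS-actin 2 with WT-actin 1), 0.79 (NLS-actin 2 with parental 2) and 0.586 (WT-actin 1 with parental 2) across genes, which are not independent replicates. These arrays had the highest ratio of the 3' to the 5' ACTB control probe sets in their lines, a measure of RNA integrity and labelling, at 12.8 in NLS-actin 2, 14.9 in WT-actin 1 and 7.96 in parental 2, and the other 6 arrays lay between 3.82 and 7.98. ACTB coding sequence is also part of both constructs. The same ratio for GAPDH was raised only in WT-actin 1, at 3.07, and lay between 1.39 and 1.95 on the other 8 arrays.

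The cell cycle genes were expressed at similar levels in the 3 lines. In NLS-actin cells against the parental line, the 52 members had a median log2 fold change of 0.00 and a range of -0.81 to 0.40, beside a median of -0.01 for all genes. Between WT-actin and parental cells the median was -0.03 and the range -0.60 to 0.29, beside -0.06 for all genes. In NLS-actin against WT-actin cells the median was 0.05 and the range -1.10 to 0.59, beside 0.03 for all genes. Log2 fold changes were positive for 26, 22 and 32 of the 52 members in these comparisons, against 49.4%, 43.7% and 53.4% of all genes. In bulk RNA, fewer cells in a phase and less RNA per cell cannot be told apart.

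**Figure D1:**
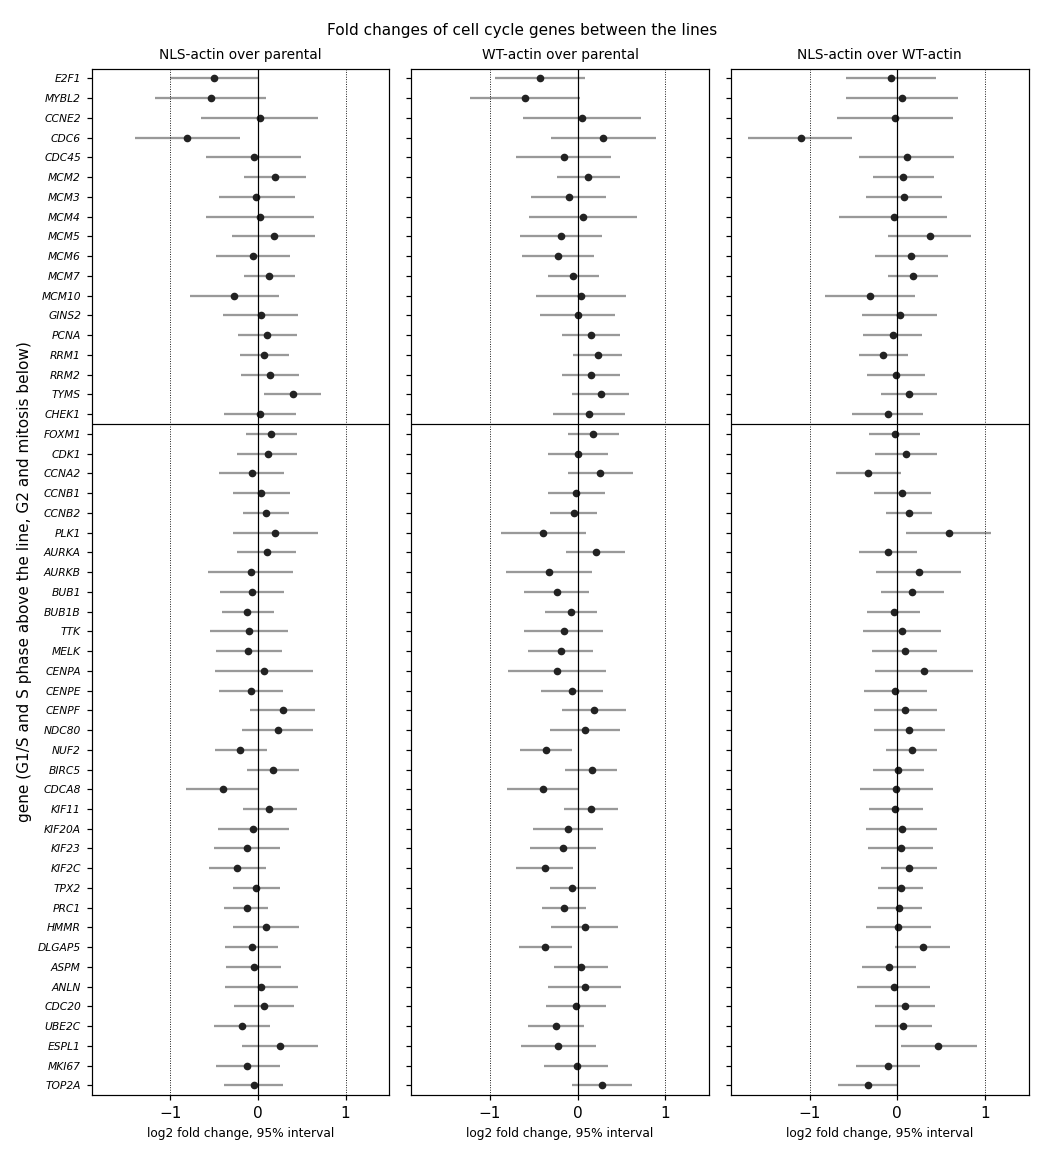
Log2 fold changes of the 52 members (points) with 95% intervals (lines) in the 3 comparisons, S phase members above the horizontal line and mitotic members below. Dotted lines mark a 2-fold change; CDC6 lies farthest to the left in NLS-actin cells against both other lines, at -0.81 and -1.10.

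None of the 52 members passed an adjusted p of 0.05 in any comparison, by limma over all 19775 genes with Benjamini-Hochberg adjustment and no replicate block. With a block for same-numbered parental and NLS-actin arrays, a pairing inferred from these data, CDC6 passed in some fits, as described below. The same rule called 0.131% of all genes in NLS-actin against parental cells, 0.167% in WT-actin against parental cells and 0.728% in NLS-actin against WT-actin cells. At an unadjusted p under 0.05, 2 members were called in NLS-actin against parental cells (TYMS higher, CDC6 lower), where 6.44% of all genes were, 2.48% higher and 3.96% lower. In WT-actin against parental cells 3 members were called (NUF2, DLGAP5 and KIF2C, all lower), where 6.69% of all genes were, 2.49% higher and 4.2% lower. In NLS-actin against WT-actin cells 3 members were called (PLK1 and ESPL1 higher, CDC6 lower), where 9.47% of all genes were, 5.39% higher and 4.09% lower. An unadjusted p under 0.05 together with a fold above 2 was reached by 1 member, CDC6 in NLS-actin against WT-actin cells, and by 4.85% of all genes in that comparison. No member reached both in the comparisons of NLS-actin and WT-actin with parental cells, where 3.17% and 3.03% of all genes did. The counts in both directions together did not exceed these shares of 52 genes, whereas the 3 lower members in WT-actin against parental cells stood above the share of genes lower there. Single arrays set which members were counted. In WT-actin against parental cells the count at an unadjusted p under 0.05 was 9 without WT-actin replicate 3 and 1 without parental replicate 2 or 3. In NLS-actin against parental cells it was 5 without WT-actin replicate 1, through the shared estimate of the spread, and 1 without parental replicate 1, NLS-actin replicate 2 or NLS-actin replicate 3. In NLS-actin against WT-actin cells it was 5 without NLS-actin replicate 2 and 1 without NLS-actin replicate 1.

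Most intervals of the members, by their brightest probe sets, lay within a 2-fold change. They rest on a spread between arrays that may be technical, and so do not bound differences between separate cultures. Nor do they cover other probe sets. TOP2A had an interval of -0.39 to 0.29 in NLS-actin against parental cells, while a second probe set gave -0.77. The 95% interval lay within a 2-fold change in either direction for 49 members in NLS-actin against parental cells, where this held for 45.6% of all genes. It did so for 51 members in WT-actin against parental cells (45.4% of all genes) and for 50 in NLS-actin against WT-actin cells (43.7%). The median half-width of the interval was 0.37 on the log2 scale for the members and 0.82 for all genes. The members are bright genes, all 52 lying above the median level of all genes, and their median standard deviation within a line was 0.203 log2 units, against 0.239 for all genes above that level.

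When the arrays themselves were compared, NLS-actin and parental cells did not overlap for 8 members, where this held for 13.9% of all genes. TYMS was the 1 member that lay higher in NLS-actin cells, where 6.44% of all genes did, and MYBL2, CDC6, BUB1B, NUF2, CDCA8, KIF2C and PRC1 lay lower, where 7.5% of all genes did. In WT-actin against parental cells 6 members did not overlap, where 12.3% of all genes did not, with TYMS higher (4.71% of all genes) and NUF2, CDCA8, KIF2C, PRC1 and DLGAP5 lower (7.6%). Both comparisons used the same 3 parental arrays. Between NLS-actin and WT-actin cells 5 members did not overlap, where 13.9% of all genes did not, with CCNB2, PLK1, KIF2C and ESPL1 higher (8.12% of all genes) and CDC6 lower (5.73%). Members vary together from array to array, as described below, so that these counts are not of independent genes.

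**Figure D2:**
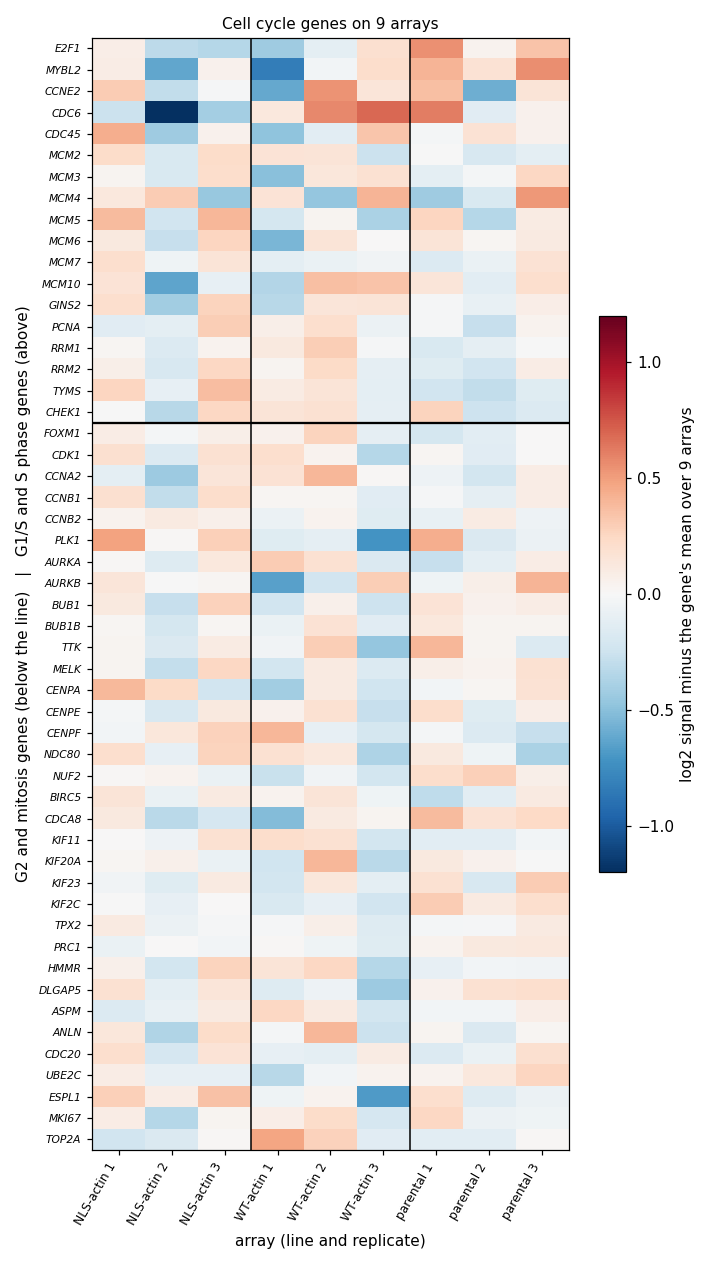
Log2 signal of the 52 members on 9 arrays, each gene centred on its mean over the arrays (red above, blue below), with NLS-actin arrays on the left, WT-actin arrays in the middle and parental arrays on the right. Columns differ within each line, with pale or blue columns for NLS-actin 2, WT-actin 1 (S phase genes, above the line) and WT-actin 3 (mitotic genes, below it).

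Among the transcription factors, E2F1 and MYBL2 had lower mean signals in both actin lines than in the parental line. E2F1, which drives S phase genes and its own promoter, had signals of 426, 325 and 317 in NLS-actin cells, 300, 372 and 459 in WT-actin cells and 588, 414 and 512 in parental cells. Each actin line overlapped the parental range on 1 array. Against the parental line, the log2 fold change of E2F1 in NLS-actin cells was -0.50 (95% interval -1.01 to 0.01, adjusted p = 0.785 by limma) and that in WT-actin cells was -0.43 (95% interval -0.94 to 0.08). A second, dimmer E2F1 probe set gave -0.55 in NLS-actin and -0.73 in WT-actin cells. MYBL2, the MYB family factor that joins the MuvB core on mitotic promoters, had signals of 466, 284 and 453 in NLS-actin cells, 246, 428 and 506 in WT-actin cells and 582, 494 and 646 in parental cells. All 3 NLS-actin arrays lay below the parental arrays, and of the WT-actin arrays only replicate 3 reached their range. MYBL2 had a log2 fold change against the parental line of -0.54 in NLS-actin cells (95% interval -1.18 to 0.09) and of -0.60 in WT-actin cells (-1.23 to 0.03). FOXM1, the forkhead factor of G2 genes, showed no such difference, with 5080, 4700 and 5020 in NLS-actin cells, 4960, 5760 and 4430 in WT-actin cells and 4140, 4390 and 4800 in parental cells. Its ranges overlapped in every pair of lines.

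The cyclins and their kinase CDK1 overlapped between the lines in all but 1 case. CDK1, the kinase that triggers mitosis, had signals of 7150, 5610 and 7120 in NLS-actin cells, 7210, 6480 and 4940 in WT-actin cells and 6360, 5720 and 6300 in parental cells. CCNB1, its partner cyclin B1, had 7840, 5600 and 7960 in NLS-actin cells, 7010, 6990 and 6270 in WT-actin cells and 6810, 6400 and 7330 in parental cells. For both genes the ranges overlapped in every pair of lines. CCNE2, a cyclin of S phase entry, had 1430, 944 and 1150 in NLS-actin cells, 760, 1690 and 1280 in WT-actin cells and 1490, 773 and 1290 in parental cells. Its spread within WT-actin and parental cells was wider than any difference between the lines. CCNA2, a cyclin of S and G2 phase, had 4350, 3480 and 5230 in NLS-actin cells and 5330, 6220 and 4760 in WT-actin cells, which overlap, and a log2 fold change of -0.33 between them (95% interval -0.70 to 0.04). The exception was CCNB2, whose NLS-actin arrays (4340 to 4540) lay just above the WT-actin arrays (3810 to 4320).

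CDC6 was the member that differed most. CDC6 loads the MCM helicase onto replication origins in G1. Its signals were 1310, 658 and 1180 in NLS-actin cells, 1710, 2330 and 2530 in WT-actin cells and 2390, 1420 and 1620 in parental cells. Every NLS-actin array lay below every array of the other lines, and WT-actin and parental cells overlapped. The means were 1050 ± 346 in NLS-actin cells, 2190 ± 427 in WT-actin cells and 1810 ± 514 in parental cells (SD, n = 3 each). In NLS-actin against parental cells the log2 fold change was -0.81 (standard error 0.27, 95% interval -1.41 to -0.21, adjusted p = 0.53 by limma). In NLS-actin against WT-actin cells it was -1.10 (standard error 0.27, 95% interval -1.70 to -0.51, adjusted p = 0.127 by limma). In WT-actin against parental cells it was 0.29 (95% interval -0.30 to 0.89). A dimmer CDC6 probe set had log2 fold changes of -0.75 and -0.86 in NLS-actin cells against parental and WT-actin cells. NLS-actin replicate 2 had the lowest CDC6 signal and is 1 of the arrays that stood apart. Without it, the log2 fold change was -0.50 against parental cells and -0.80 against WT-actin cells, and without parental replicate 1, the highest parental array, it was -0.59 against parental cells. Against parental cells the unadjusted p was above 0.05 without either array, and against WT-actin cells it stayed under 0.05 without any 1 array. The labels state no pairing. Parental and NLS-actin arrays of the same number were taken as paired from their residual correlations in these data, at 0.234, 0.79 and 0.416. NLS-actin 1 correlated more with parental 3, at 0.534. A limma fit of these 6 arrays with the number as a block was chosen after seeing the data. In it the adjusted p of CDC6 against the parental line was 0.0103. That fit called 378 genes, against 15 in the fit of the same 6 arrays without the block, where the adjusted p of CDC6 was 0.538. With all 9 arrays the block gave CDC6 an adjusted p of 0.479 against the parental line, or 0.183 where only the parental and NLS-actin arrays were blocked. Against WT-actin cells the same fits gave it an adjusted p of 0.0909 and of 0.0203, the second of which passed the threshold.

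**Figure D3:**
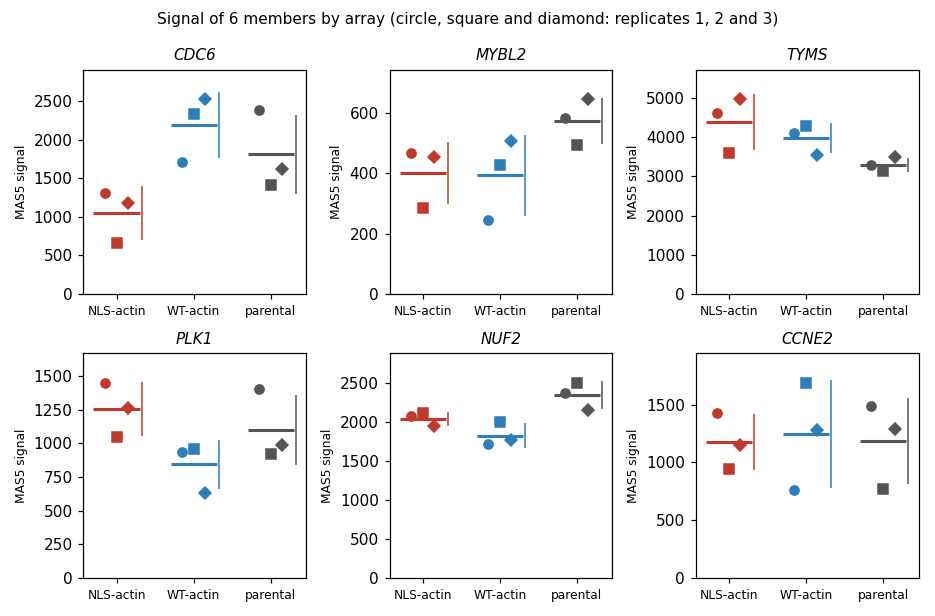
MAS5 signal of 6 members on every array (symbols: replicates 1, 2 and 3), with the mean (horizontal bar) and 1 SD (thin line) for NLS-actin, WT-actin and parental cells from left to right. The 3 NLS-actin arrays of CDC6 (658 to 1310) lie below all 6 other arrays (1420 to 2530), and in CCNE2 the arrays of each line spread across those of the others.

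By the brightest probe sets, the rest of the replication machinery did not share the difference of CDC6. Of the 11 genes of origin licensing, the helicase and the clamp, CDC6 was the only one with an unadjusted p under 0.05 in any comparison. Without CDC6, their log2 fold changes ran from -0.27 to 0.19 in NLS-actin against parental cells and from -0.31 to 0.37 in NLS-actin against WT-actin cells. Dimmer MCM10 probe sets gave -0.45 and -0.52 against parental cells and -0.31 and -0.60 against WT-actin cells, none at an unadjusted p under 0.05. A dimmer probe set of MCM5, named after its values were seen, gave 0.47 in NLS-actin against WT-actin cells (unadjusted p = 0.0394 by limma over all probe sets). MCM2, a subunit of the helicase, had signals of 4130, 3120 and 4130 in NLS-actin cells, 3970, 3930 and 2960 in WT-actin cells and 3520, 3110 and 3260 in parental cells. MCM10, which activates the loaded helicase, had 2900, 1670 and 2420 in NLS-actin cells, 2030, 3340 and 3290 in WT-actin cells and 2870, 2380 and 2990 in parental cells. PCNA, the sliding clamp of the polymerases, had 4600, 4660 and 6190 in NLS-actin cells, 5290, 5790 and 4810 in WT-actin cells and 4980, 4160 and 5200 in parental cells. The lines overlapped for all 3 genes.

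The 3 genes of nucleotide synthesis had positive log2 fold changes in both actin lines against the parental line, between 0.07 and 0.40 in NLS-actin cells and between 0.15 and 0.27 in WT-actin cells by their brightest probe sets. Dimmer probe sets gave -0.30 in NLS-actin and -0.19 in WT-actin cells for RRM1, 0.08 and -0.08 for RRM2, and 0.11 to 0.36 and -0.14 to 0.00 for TYMS. TYMS, thymidylate synthase, had signals of 4610, 3600 and 4980 in NLS-actin cells, 4110, 4290 and 3550 in WT-actin cells and 3290, 3130 and 3490 in parental cells. Every array of both actin lines lay above the parental arrays. For TYMS the log2 fold change in NLS-actin cells was 0.40 (95% interval 0.07 to 0.72, adjusted p = 0.637 by limma) and that in WT-actin cells was 0.27 (95% interval -0.06 to 0.59). RRM2, the small subunit of ribonucleotide reductase, had 7320, 6110 and 8310 in NLS-actin cells, 7150, 8180 and 6470 in WT-actin cells and 6300, 5960 and 7400 in parental cells. RRM1, the large subunit, had a log2 fold change of 0.23 in WT-actin against parental cells (95% interval -0.05 to 0.51), with 6000, 6790 and 5480 against 4890, 5160 and 5510. For both subunits the lines overlapped.

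Of the 8 mitotic and checkpoint kinases, PLK1 differed most, and between the actin lines. PLK1, the Polo-like kinase of mitotic entry, had signals of 1450, 1050 and 1260 in NLS-actin cells, 938, 959 and 631 in WT-actin cells and 1400, 920 and 985 in parental cells. Every NLS-actin array lay above every WT-actin array, and the parental arrays overlapped both. Between the actin lines the log2 fold change was 0.59 (95% interval 0.10 to 1.07, adjusted p = 0.396 by limma), and it was -0.39 in WT-actin against parental cells (95% interval -0.88 to 0.10). Leaving out WT-actin replicate 3, NLS-actin replicate 1 or NLS-actin replicate 3 took the unadjusted p of PLK1 above 0.05. AURKB, the kinase of the chromosomal passenger complex, had 1410, 1270 and 1300 in NLS-actin cells, 814, 1090 and 1570 in WT-actin cells and 1230, 1340 and 1690 in parental cells. CHEK1, the checkpoint kinase that stalled replication activates, had 2320, 1840 and 2750 in NLS-actin cells, 2580, 2640 and 2160 in WT-actin cells and 2800, 1950 and 2070 in parental cells. Neither AURKB nor CHEK1 separated the lines.

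Among the 7 centromere, kinetochore and passenger genes, NUF2 and CDCA8 lay lower in both actin lines. NUF2, part of the kinetochore complex that holds microtubules, had 2070, 2110 and 1940 in NLS-actin cells, 1710, 2000 and 1760 in WT-actin cells and 2370, 2500 and 2150 in parental cells. Neither actin line overlapped the parental arrays. NUF2 had a log2 fold change of -0.36 in WT-actin against parental cells (95% interval -0.66 to -0.06, adjusted p = 0.64 by limma). CDCA8, borealin of the passenger complex, had 1930, 1420 and 1550 in NLS-actin cells, 1240, 1920 and 1820 in WT-actin cells and 2320, 2010 and 2100 in parental cells. Again all 6 actin arrays lay below the parental arrays. CDCA8 had a log2 fold change against the parental line of -0.40 in NLS-actin cells (95% interval -0.82 to 0.01) and of -0.39 in WT-actin cells (-0.81 to 0.02). CENPF, a kinetochore protein of G2, had 4590, 5150 and 5700 in NLS-actin cells, 6200, 4400 and 4050 in WT-actin cells and 4610, 4190 and 3880 in parental cells. The lowest NLS-actin array lay just below the highest parental array, and the log2 fold change in NLS-actin against parental cells was 0.28 (95% interval -0.09 to 0.65). BIRC5, survivin of the same passenger complex, had 10000, 8540 and 9730 in NLS-actin cells, 9260, 10000 and 8720 in WT-actin cells and 7280, 8260 and 9680 in parental cells. Its log2 fold change in NLS-actin against parental cells was 0.17 (95% interval -0.12 to 0.47), with overlapping arrays, and turned to -0.04 after quantile normalization.

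The 10 mitotic kinesins and spindle proteins spanned log2 fold changes of -0.24 to 0.13 in NLS-actin and -0.37 to 0.15 in WT-actin cells relative to parental cells. KIF2C, a kinesin that takes microtubules apart at the kinetochore, had 980, 922 and 990 in NLS-actin cells, 868, 918 and 842 in WT-actin cells and 1220, 1060 and 1130 in parental cells. By this probe set the 3 lines did not overlap, with WT-actin lowest and parental highest. By a dimmer KIF2C probe set NLS-actin and parental arrays overlapped, at a log2 fold change of -0.08, and WT-actin against parental cells gave -0.47. Between WT-actin and parental cells KIF2C had a log2 fold change of -0.37 (95% interval -0.70 to -0.05, adjusted p = 0.675 by limma). DLGAP5, a protein of the spindle microtubules, had 5700, 4620 and 5550 in NLS-actin cells, 4500, 4810 and 3700 in WT-actin cells and 5200, 5680 and 5780 in parental cells. All WT-actin arrays lay below the parental arrays, and 1 WT-actin array reached into the NLS-actin range. DLGAP5 had a log2 fold change of -0.37 in WT-actin against parental cells (95% interval -0.67 to -0.06, adjusted p = 0.663 by limma) and of 0.29 in NLS-actin against WT-actin cells (95% interval -0.02 to 0.60).

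Among the genes of anaphase, ESPL1, the separase that cuts cohesin, had signals of 1730, 1510 and 1810 in NLS-actin cells, 1370, 1460 and 889 in WT-actin cells and 1630, 1280 and 1350 in parental cells. The NLS-actin arrays lay above all WT-actin arrays. Their log2 fold change was 0.47 (95% interval 0.04 to 0.91, adjusted p = 0.469 by limma), and WT-actin replicate 3 was the lowest of all arrays. CDC20, which activates the anaphase-promoting complex, had 3930, 2970 and 3830 in NLS-actin cells, 3190, 3160 and 3670 in WT-actin cells and 3050, 3240 and 3910 in parental cells. MKI67, the proliferation marker that coats mitotic chromosomes, had 3540, 2610 and 3390 in NLS-actin cells, 3510, 3860 and 2880 in WT-actin cells and 3940, 3160 and 3210 in parental cells. CDC20 and MKI67 overlapped in every pair of lines.

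TOP2A, the topoisomerase that untangles sister chromatids, depended on the probe set. By its brightest probe set it had 6640, 6900 and 7870 in NLS-actin cells, 10800, 9390 and 7070 in WT-actin cells and 7140, 7130 and 7870 in parental cells. The log2 fold change was 0.28 in WT-actin against parental cells (95% interval -0.06 to 0.62) and -0.33 in NLS-actin against WT-actin cells (95% interval -0.67 to 0.01), with overlapping arrays in both comparisons. The mean over all TOP2A probe sets gave -0.24 in WT-actin against parental cells. A second TOP2A probe set had 2540, 2780 and 2090 in NLS-actin cells, 3250, 4180 and 3370 in WT-actin cells and 4010, 4360 and 4240 in parental cells. There the NLS-actin arrays lay below all other arrays, with a log2 fold change against parental cells of -0.77 (standard error 0.16, adjusted p = 0.155 by limma over all probe sets), where the brightest probe set gave -0.05. Of the 104 probe sets of the members, none passed an adjusted p of 0.05 in any comparison, and at an unadjusted p under 0.05 there were 8 in NLS-actin against parental cells, 9 in WT-actin against parental cells and 6 in NLS-actin against WT-actin cells. Of all 54613 probe sets, 6.36%, 5.98% and 7.85% were called at that level. Among 27 members with more than 1 probe set at a mean signal of at least 100, all probe sets had the same sign for 16, 10 and 17 members in these comparisons. ASPM and BUB1, named after their values were seen, also had dimmer probe sets, at a mean signal of at least 100, that lay lower in NLS-actin than in parental cells, at log2 fold changes of -0.62 and -0.58 for ASPM and -0.59 and -0.78 for BUB1, where their brightest probe sets gave -0.05 and -0.07. The same dimmer probe sets were also lower in WT-actin than in parental cells, at -0.23 and -0.34 for ASPM and -0.75 and -0.95 for BUB1.

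**Figure D4:**
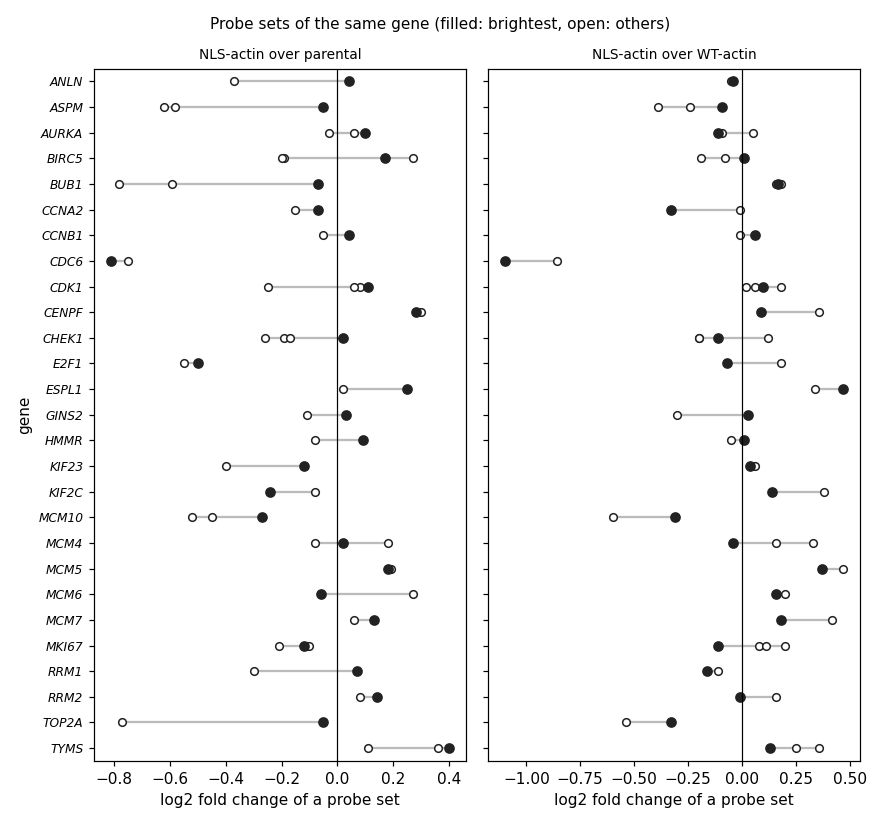
Log2 fold changes of single probe sets for the 27 members with more than 1 probe set at a mean signal of at least 100, in NLS-actin against parental cells (left) and against WT-actin cells (right). The filled point is the brightest probe set and open points are the others; the CDC6 probe sets lie together at -0.81 and -0.75, and those of TOP2A lie apart at -0.05 and -0.77.

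The mean level of the members varied more within lines than between them, and this variation was shared between members. The mean of the centred log2 signals of the 18 S phase members was 0.13, -0.30 and 0.08 on the NLS-actin arrays, -0.19, 0.13 and 0.09 on the WT-actin arrays and 0.08, -0.14 and 0.13 on the parental arrays. A single array of each line was low, and these were the 3 arrays that stood apart over all genes. The mean of the 34 mitotic members was 0.08, -0.12 and 0.10 on the NLS-actin arrays, -0.04, 0.10 and -0.21 on the WT-actin arrays and 0.05, -0.03 and 0.06 on the parental arrays. For mitosis the lowest WT-actin array was replicate 3, not replicate 1. The line means of the S phase score were -0.03 ± 0.24 in NLS-actin cells, 0.01 ± 0.17 in WT-actin cells and 0.02 ± 0.14 in parental cells (SD, n = 3 each). Those of the mitotic score were 0.02 ± 0.12 in NLS-actin cells, -0.05 ± 0.16 in WT-actin cells and 0.03 ± 0.05 in parental cells (SD, n = 3 each).

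**Figure D5:**
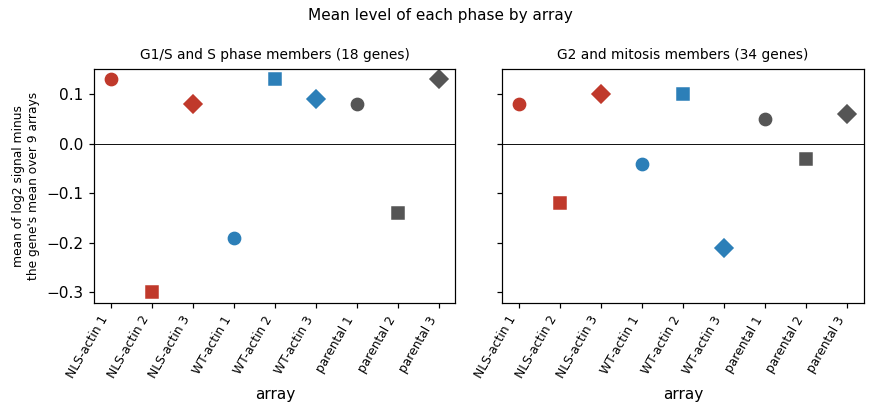
Mean centred log2 signal of the 18 S phase members (left) and 34 mitotic members (right) on each array, NLS-actin first, then WT-actin and parental (circle, square and diamond: replicates 1, 2 and 3). The S phase mean is lowest on NLS-actin 2 (-0.30), WT-actin 1 (-0.19) and parental 2 (-0.14), and the mitotic mean is lowest on WT-actin 3 (-0.21).

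Within lines, 9 of the 52 members were lowest on NLS-actin 2, WT-actin 1 and parental 2 at once, against 9.2% of all genes. They were MYBL2, CCNE2, CDC6, MCM6, MCM10 and GINS2 among the 18 S phase members, and MELK, CDCA8 and KIF23 among the 34 mitotic members. None of the 52 was highest on all of these arrays, against 15.5% of all genes. On NLS-actin 2 alone 40 members were at the lowest value of their line, against 34.8% of all genes. On WT-actin 1 there were 17, against 32.6% of all genes. On parental 2 there were 30, against 29.2% of all genes. On WT-actin 3 there were 33, of which 26 were mitotic, against 38.3% of all genes. Across the 9 arrays, deviations from the line means had a mean pairwise correlation of 0.42 within the S phase members, 0.35 within the mitotic members and 0.27 between them, and 0.00 among all genes above the median level. Other genes were highest on the same 3 arrays. The mean centred log2 signal of the 10 markers of differentiating keratinocytes was 0.46, 1.33 and -0.29 on the NLS-actin arrays, -0.08, -0.57 and -0.74 on the WT-actin arrays and -0.35, 0.83 and -0.60 on the parental arrays. Of these markers KRT1, IVL, TGM1 and DSC1 were the highest of their line on all 3 arrays, against 15.5% of all genes, and FLG was the lowest, against 9.2%. DSC1 was near background. DSG1, LORICRIN and CALML5 were dim as well, with no signal above 42.2, and dim markers entered the mean with the same weight as the others. The mean of the 9 CDK inhibitors and pocket proteins was likewise highest there, at 0.32 on NLS-actin 2, 0.53 on WT-actin 1 and 0.11 on parental 2. Of these 9 genes, only CDKN1A and CDKN2B were the highest of their line on all 3 arrays, against 15.5% of all genes. The dim CDKN2D had 2.62, 27.3 and 6.47 on the parental arrays, while CDKN1B, CDKN2A, RB1, RBL1 and RBL2 were lower on parental 2 than on parental 1. CDKN1A, the inhibitor p21 that p53 induces, had 992, 4150 and 1590 in NLS-actin cells, 2990, 1810 and 1850 in WT-actin cells and 1260, 2070 and 1220 in parental cells. Among the 16 p53 targets, 3 were the highest of their line on all of these arrays (CDKN1A, TP53INP1 and DDB2), against 15.5% of all genes. GADD45A was the 1 target that was lowest on these arrays, against 9.2% of all genes. These markers, CDK inhibitors, pocket proteins and p53 targets were named after their values were seen. The correlations are a description over 9 arrays that share these levels and the ACTB and GAPDH ratios given above, whose part in the pattern was not tested.

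Other genes of the cell cycle were described by 7 further lists, whose median log2 fold changes lay between -0.13 and 0.23 in NLS-actin against parental cells. None of these lists held a gene at an adjusted p under 0.05 by limma in any comparison. At an unadjusted p under 0.05 in NLS-actin against parental cells, 2 of 43 other replication genes were higher, where 2.48% of all genes were, and none of 59 other mitosis genes reached that level in either direction. GINS3, a subunit of the GINS complex at the fork, was the replication gene with the smallest p, at 4690, 3570 and 3840 in NLS-actin cells against 3220, 3090 and 3210 in parental cells (log2 fold change 0.34, standard error 0.13). Its arrays did not overlap. PKMYT1, a kinase that restrains CDK1, had 970, 823 and 1110 in NLS-actin cells against 778, 620 and 741 in parental cells (log2 fold change 0.43, standard error 0.22) and did not overlap either. Its WT-actin arrays were at 378, 577 and 595. The log2 fold change of PKMYT1 was 0.92 in NLS-actin against WT-actin cells (adjusted p = 0.0966 by limma) and -0.49 in WT-actin against parental cells. Between NLS-actin and WT-actin cells 5 of the 43 replication genes and 2 of the 59 mitosis genes were higher at an unadjusted p under 0.05, and none was lower, where 5.39% of all genes were higher and 4.09% lower. Between WT-actin and parental cells, 5 of the 43 replication genes were lower and none higher, and 3 of the 59 mitosis genes were higher and 3 lower, where 2.49% of all genes were higher and 4.2% lower. These comparisons used the same WT-actin arrays.

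In NLS-actin against parental cells, each list of G1 regulators gave 1 gene or none at an unadjusted p under 0.05. None of 9 G1 cyclins and kinases and none of 9 CDK inhibitors and pocket proteins reached an unadjusted p of 0.05 in NLS-actin against parental cells. CCND3, cyclin D3, had 969, 644 and 863 in NLS-actin cells against 1150, 985 and 1040 in parental cells (log2 fold change -0.38, standard error 0.21). CDKN2D, an inhibitor of CDK4 and CDK6, was dim, with 29.1, 19.9 and 23.3 in NLS-actin cells against 2.62, 27.3 and 6.47 in parental cells, and the groups overlapped. RBBP4, a histone-binding subunit of the DREAM complex, had 999, 1010 and 904 in NLS-actin cells against 1420, 1410 and 1200 in parental cells and was the only member of 14 genes of the E2F family and DREAM at an unadjusted p under 0.05 (log2 fold change -0.46, standard error 0.16, adjusted p = 0.525 by limma). Its arrays did not overlap, but without probe sets that match several transcripts the log2 fold change was 0.10. In WT-actin against parental cells RBBP4 and E2F2, the second named after its values were seen, were lower at that level. GADD45A, a p53 target induced by DNA damage, had 2550, 1820 and 2600 in NLS-actin cells against 3030, 2980 and 4030 in parental cells with no overlap, and was the only member of 16 p53 targets at that level (log2 fold change -0.53, standard error 0.24, adjusted p = 0.765 by limma). FZR1, which activates the anaphase-promoting complex in G1, had 135, 69.7 and 74.5 in NLS-actin cells against 158, 123 and 159 in parental cells with overlap on 1 array, and was the only member of 20 ubiquitin ligase genes at that level (log2 fold change -0.71, standard error 0.32, adjusted p = 0.768 by limma). In the mean over its probe sets FZR1 was at 0.04.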

How the data were processed

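RNA from NLS-actin, WT-actin and parental HaCaT cells was hybridised to 9 arrays. The deposited values were MAS5 signals calculated by the authors, a linear intensity per probe set, whose trimmed mean (2 percent at each end) lay between 500.04 and 500.06 on each. Signals were converted to log2 with no offset or filter. Without 62 control probe sets, 54613 were named through the array annotation, updated by gene identifier; 1801 probe sets with several symbols and 11721 with none listed were not assigned to genes. Each gene took its brightest probe set. The median signal of an array ranged from 29.67 to 43.26, and the number of arrays limits the precision.

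Lines were compared in 1 fit of all 9 arrays with limma 3.58.1 in R 4.3.3, with an intensity trend, no replicate term and Benjamini-Hochberg adjustment over 19775 genes (threshold 0.05). The fit was tested on simulated data. The members and lists were chosen with earlier results of these data known. Named with values were genes past the adjusted threshold, the 3 members with the smallest p in each direction of each comparison, 20 landmark members, and the gene with the smallest p in each other list. Members named only because their arrays or probe sets did not overlap were named after their values were seen. Same-numbered parental and NLS-actin arrays had residual correlations of 0.234, 0.79 and 0.416, and were taken as paired; replicates 1 and 3 also correlated across numbers (0.336 and 0.534). Those of WT-actin arrays were not all positive. Alternatives were quantile normalization, an offset before log2, a filter on dim genes, no intensity trend, replicate blocks, 2 lines only, other choices of probe sets, the methods' analysis of variance with Tukey's test, the methods' thresholds and omission of arrays. The fit with the ACTB ratio and the blocked fit of 2 lines were chosen after seeing the data. An exact permutation test between 2 lines could not go below 0.1 and was not used. Python 3.11.15 with pandas 2.3.3 counted motifs, and matplotlib 3.10.9 drew the figures.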

Additional observations from a re-analysis of the deposited data

How the results depend on the processing

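The count of members at an adjusted p under 0.05 was 0 in each comparison and stayed at 0 when any array was left out (lowest 0, highest 0). It became 1, CDC6, in NLS-actin against parental cells with the replicate block in a fit of these 6 arrays. In NLS-actin against WT-actin cells it became 1, again CDC6, with the methods' thresholds, with a replicate block for NLS-actin and parental arrays inside the fit of all 9 (adjusted p = 0.0203) and with the ACTB ratio in the fit (adjusted p = 0.0287, log2 fold change -0.95). The replicate block over all 9 arrays changed no call (count 0). The median log2 fold change of the members ranged over the alternatives from -0.07 to 0.09 in NLS-actin against parental cells, from -0.10 to 0.00 in WT-actin against parental cells and from 0.00 to 0.12 in NLS-actin against WT-actin cells, and these were also the ranges with 1 array left out. The CDC6 log2 fold change was closest to 0 without NLS-actin replicate 2, at -0.50 against parental and -0.80 against WT-actin cells, and without NLS-actin 2, WT-actin 1 and parental 2 together it was -0.66 and -0.97 (adjusted p = 0.435 and 0.0618 by limma). Members at an unadjusted p under 0.05 in WT-actin against parental cells numbered 9 without WT-actin replicate 3, with RRM1, AURKA, KIF11 and TOP2A higher and E2F1, MYBL2, AURKB, NUF2 and CDCA8 lower, and 1 without parental replicate 2. The sign turned for BIRC5 (-0.04, quantile normalization) and, in the mean over all probe sets, for FZR1 (0.04) in NLS-actin and TOP2A (-0.24) in WT-actin against parental cells; RBBP4 gave 0.10 in NLS-actin against parental cells without probe sets that match several transcripts. GADD45A had an adjusted p of 0.0497 in the blocked fit of 2 lines. Genes called at large in the 3 comparisons numbered 26, 33 and 144, against 64, 84 and 307 with the ACTB ratio, 10, 12 and 76 without the intensity trend, 10, 14 and 82 with the mean of probe sets and 4, 8 and 17 by Tukey's test. The cause of these shifts was not tested. Signals near background limit CDKN2D, whose log2 fold change ranged from 0.02 to 2.66.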
